A study of Mus musculus with 18 samples.

Results

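Brown adipose tissue (BAT) of mice with raised farnesoid X receptor (FXR) in fat was compared with BAT of wild-type mice. The comparison used the 5 arrays titled as human FXR BAT and the 5 titled as control BAT, 10 of the 18 arrays in the study, chosen by their titles. Both groups were male C57BL/6J mice on a chow diet, 10 weeks old, and the FXR mice overexpressed human FXR specifically in adipose tissue. The sources used here do not name the transgene's promoter, and the extract text of control BAT 2 and 4 names 6 weeks of feeding. The other 8 arrays, of white adipose tissue (WAT) from the same genotypes, served here only to check the tissue labels. The study's design describes each group's samples as biological replicates, and the labels name no batch.

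FXR is a nuclear receptor that bile acids activate and that binds DNA together with the retinoid X receptor. It is best known for controlling bile acid handling in the liver and intestine. Brown adipocytes burn fatty acids and glucose in mitochondria whose uncoupling protein, UCP1, turns the proton gradient into heat. Noradrenaline drives this through cyclic AMP, which also induces the deiodinase that activates thyroid hormone within the tissue.

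Levels are log2(intensity + 1) of a gene's probe set, and a difference is the FXR mean minus the control mean on this scale, with its standard error (SE). Levels of different genes are not compared, because each probe set has its own response. A gene was called changed at an adjusted p below 0.05 (limma with Benjamini-Hochberg over 19937 genes). Array medians lay between 93.1 and 97.8 intensity units in controls and between 97.6 and 99.9 in FXR BAT. Median levels over the tested genes were 6.731 to 6.804 in controls and 6.823 to 6.864 in FXR BAT. The groups thus did not overlap in this median, and array brightness and genotype cannot be told apart. Per array, 28.7% to 34.9% of probe sets lay within 1.5-fold of the array's 1% quantile, where differences are compressed. Ucp1 ranged from 12.61 to 13.42 over the BAT arrays and from 5.73 to 6.01 over the WAT arrays. Cidea, another brown fat marker, ranged from 11.80 to 12.45 against 5.79 to 6.05, and Hoxc8, a gene of white fat depots, from 6.98 to 7.71 against 8.70 to 9.56. Ucp1, Cidea and Hoxc8 went with the tissue labels. Hoxc9, another white-fat position gene, went the other way, with 6.31 to 6.46 over the BAT arrays and 6.01 to 6.30 over the WAT arrays.

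The FXR BAT arrays differed among themselves in skeletal muscle signal. The mean of 23 fast-muscle genes was 10.47, 9.89 and 10.37 on FXR BAT 1, 2 and 4, but 6.96 on FXR BAT 3 and 8.33 on FXR BAT 5. Control arrays lay between 6.88 and 8.71, so that FXR BAT 3 and 5 fell within the control range and the other 3 above it. The mean of 16 slow and cardiac-type muscle genes was likewise above the controls on FXR BAT 1, 2 and 4 only, with 8.66, 7.92 and 8.96 on FXR BAT 1, 2 and 4, 6.62 on FXR BAT 3 and 6.92 on FXR BAT 5, against 6.55 to 6.95 in controls. Counts for each gene list are therefore given for all 10 arrays and for a fit that kept only FXR BAT 3 and 5 with the 5 controls. A gene named by rule kept its call in that fit unless its loss is stated. With fewer arrays, a call can be lost in that fit at an unchanged difference. These 2 sets of FXR arrays were defined by a measured signal and were not tested against each other. They share the control arrays.

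Among the 19937 genes, 1398 were higher in FXR BAT (7.01% of genes) and 1744 were lower (8.75%), and the median difference over all genes was 0.01. With each array centred on its own median, 886 were higher and 2511 lower, so that 26.1% of calls were rises in place of 44.5%. When FXR BAT 3 and 5 alone were compared with the controls, 920 genes were higher (4.61%) and 993 lower (4.98%). With FXR BAT 1, 2 and 4 alone, 1441 were higher (7.23%) and 1755 lower (8.8%). The counts of each gene list below are to be read beside these shares over all genes. Of the 920 and 993 genes, 617 and 690 were also called in the same direction with FXR BAT 1, 2 and 4, and 4 were called in opposite directions. Large changes were mostly rises: 74 genes rose and 12 fell at least 2-fold. Of these, 57 of the 74 and 10 of the 12 were also called with FXR BAT 3 and 5 alone. The 2 that were not were the fatty acid receptor gene Ffar4 and Mt2, a metallothionein gene picked with its values known. Mt2 differed by -1.10 over all FXR arrays and by -1.06 on FXR BAT 3 and 5.

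Called genes whose groups did not overlap were ranked by difference, leaving out predicted genes, olfactory and vomeronasal receptors, small RNAs and antigen receptor segments. The largest rise in this ranking was in Inhba, which encodes the subunit of activin A, a secreted ligand of the TGF-beta family. Its levels on FXR BAT 1 to 5 were 8.48, 8.31, 9.17, 8.71 and 9.14, and on control BAT 1 to 5 they were 6.51, 6.40, 6.37, 6.36 and 6.50. All FXR arrays lay above all controls, with the highest values on FXR BAT 3 and 5. The rise was 5.04-fold over all arrays, or 2.33 ± 0.15 on the log2 scale (adjusted p = 1.02e-05, limma, 5 arrays per group), and 6.63-fold on FXR BAT 3 and 5. Cilp, a matrix protein of cartilage and other connective tissue, had levels of 8.32, 8.78, 8.57, 8.69 and 8.45 on FXR BAT 1 to 5 and 6.54, 6.73, 6.66, 6.61 and 6.62 on the controls. Its 3.82-fold rise (1.93 ± 0.08, adjusted p = 3.26e-07, limma) was nearly the same in both sets, with differences of 1.97 on FXR BAT 1, 2 and 4 and 1.88 on FXR BAT 3 and 5. Control levels of Inhba and Cilp lay near the dim end, where differences are compressed. Gpc3, a cell-surface proteoglycan that binds growth factors, rose 3.15-fold, with 8.63, 8.76, 9.04, 8.73 and 8.69 in FXR BAT and 6.85, 6.98, 7.31, 7.40 and 7.06 in controls. Groups that did not overlap, with all FXR arrays higher, were seen for 1174 genes (5.89%), and with all FXR arrays lower for 1255 (6.29%).

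**Figure D1:**
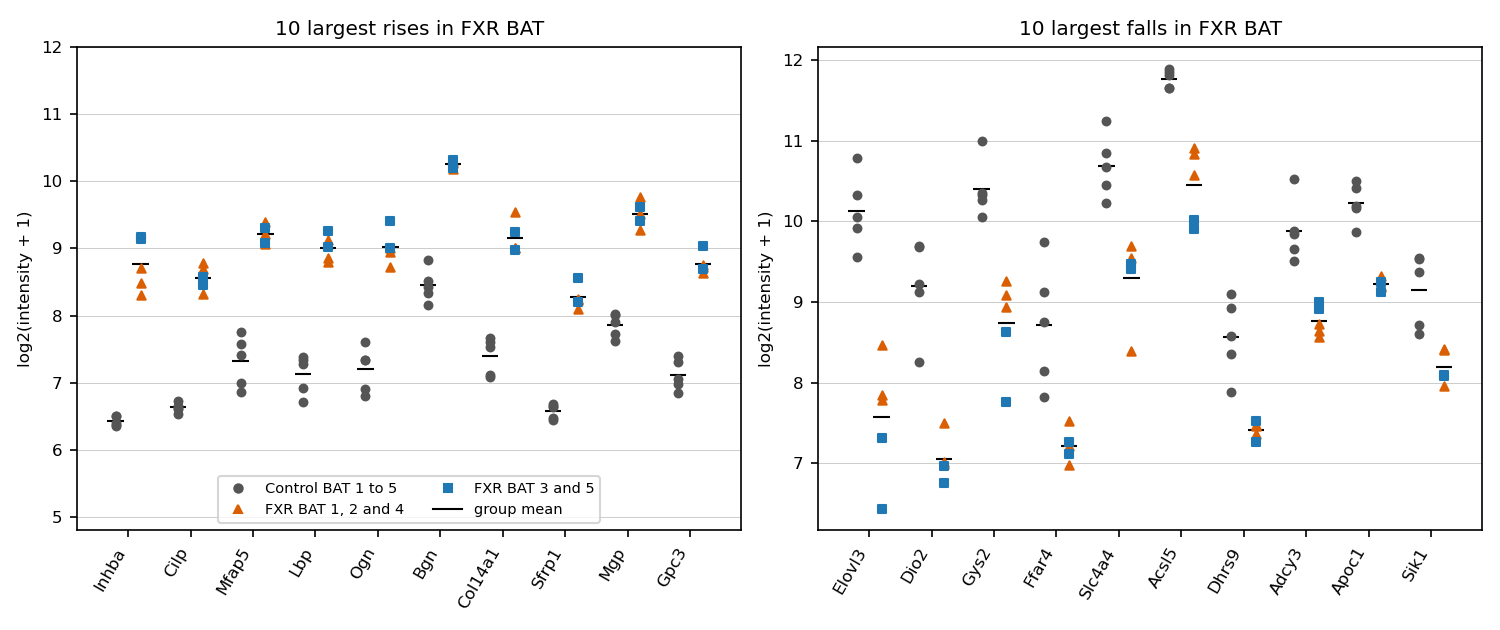
Levels per array, log2(intensity + 1), of the 10 largest rises and the 10 largest falls in the ranking of called genes whose groups did not overlap. Circles are control BAT, triangles FXR BAT 1, 2 and 4, squares FXR BAT 3 and 5, and lines group means. Inhba lies between 6.36 and 6.51 in controls and between 8.31 and 9.17 in FXR BAT, and the squares of Elovl3, Gys2 and Acsl5 lie below the triangles.

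In the activin, TGF-beta and BMP family, the largest rises were in ligands and other secreted proteins, and most receptors and SMAD proteins did not pass. Of 44 measured genes, 14 rose, 1 fell and 29 did not pass, with a median difference of 0.09 against 0.01 for all genes. With FXR BAT 3 and 5 alone, 11 rose and 1 fell. Fstl1, a secreted glycoprotein related to follistatin, rose by 1.45 ± 0.14, with 9.33, 9.27, 9.33, 9.85 and 9.60 in FXR BAT against 7.77, 7.76, 8.30, 8.26 and 8.04. Tgfbi, a matrix protein that TGF-beta induces, rose by 1.10 ± 0.10. The ligand gene Tgfb3 was steady within groups, at 7.72, 7.63, 7.71, 7.71 and 7.73 in FXR BAT and 6.64, 6.56, 6.79, 6.72 and 6.66 in controls (1.02 ± 0.04, adjusted p = 3.26e-07, limma). Tgfb1 differed by 0.02 and Tgfb2 by 0.13, and neither passed. The ligand gene Bmp5 rose by 0.92 and Fst, the activin-binding follistatin, by 0.46. The type I receptor genes Tgfbr1 and Acvr1b differed by 0.11 and 0.20, and of these Acvr1b passed. The signal transducers Smad2, Smad3 and Smad4 differed by -0.02, 0.05 and -0.03 and did not pass. Except Eng, the co-receptor gene of endothelial cells that fell, Tgfb3 and the later genes of this family were picked with their values known.

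Among Wnt genes the largest rises were in secreted inhibitors. Of 33 measured genes, 7 rose, 26 did not pass and 0 fell, where 8.75% of all genes fell, with a median of 0.07, and 5 rose with FXR BAT 3 and 5 alone. With each array centred on its median 3 of the 33 fell. Sfrp1, a secreted protein that binds Wnt ligands, rose 3.23-fold, from 6.47, 6.44, 6.66, 6.68 and 6.64 in controls to 8.25, 8.23, 8.56, 8.10 and 8.21 in FXR BAT (1.69 ± 0.08, adjusted p = 1.42e-06, limma). The highest control array lay 1.42 below the lowest FXR array, and control levels of Sfrp1 lay near the dim end. Its relatives Sfrp2 and Sfrp4 rose by 1.25 ± 0.14 and 1.10 ± 0.23. For Sfrp4 the groups overlapped, and with FXR BAT 3 and 5 alone its call was lost (0.83, adjusted p = 0.0556, limma). No Wnt ligand measured passed, and the pathway's target gene Axin2, picked with its values known, differed by -0.15 without passing.

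The largest rises among collagen chains were in chains of fibrils and of a fibril-associated collagen. In a bulk tissue sample, more cells of a type and more RNA per cell cannot be told apart, and the same holds for falls. Of 30 collagen chain genes, 15 rose and 15 did not pass (median 0.19), where 7.01% of all genes rose. On FXR BAT 3 and 5 alone 13 rose, where 4.61% of all genes did. Col14a1, a collagen that sits on fibrils, had 9.00, 9.01, 8.97, 9.54 and 9.24 in FXR BAT and 7.11, 7.08, 7.53, 7.66 and 7.61 in controls, a 3.37-fold rise. The fibril-forming chains Col1a2 and Col3a1 rose by 1.53 ± 0.15 and 1.52 ± 0.18. The basement membrane chains Col4a1 and Col4a2 differed by -0.03 and -0.05 and did not pass. These 2 chains were picked with their values known.

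The small leucine-rich proteoglycans, which coat collagen fibrils, rose in 8 of 16 genes, and the other 8 did not pass (median 0.16). The same number, 8, rose on FXR BAT 3 and 5 alone. Bgn, or biglycan, was at 10.18, 10.30, 10.20, 10.27 and 10.31 on FXR BAT 1 to 5 and at 8.16, 8.43, 8.52, 8.83 and 8.33 on control BAT 1 to 5. The FXR arrays spanned only 0.13 log2 units, and the rise was 3.47-fold (1.80 ± 0.10, adjusted p = 2.97e-06, limma), with 1.80 in both sets of arrays. Ogn, or osteoglycin, rose from 6.91, 6.80, 7.34, 7.61 and 7.34 to 9.00, 8.73, 9.41, 8.95 and 9.00, 3.53-fold, and Aspn, or asporin, rose by 1.58 ± 0.14. Among members that did not pass, Prelp differed by -0.07 and Omd by 0.12.

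Of 34 matricellular and elastic fibre genes, 28 rose, 1 fell and 5 did not pass, and the median difference was 0.57. On FXR BAT 3 and 5 alone 25 rose and 1 fell. Mfap5, a protein of the microfibrils on which elastin is laid down, was at 9.07, 9.21, 9.08, 9.40 and 9.31 in FXR BAT and 6.86, 6.99, 7.76, 7.58 and 7.42 in controls, a 3.72-fold rise. Mgp, the matrix Gla protein that inhibits calcification, rose 3.17-fold, to 9.52, 9.77, 9.62, 9.28 and 9.41 from 7.72, 7.62, 8.01, 8.03 and 7.90. The member that fell was Postn, or periostin, a matrix protein of fibroblasts, picked with its values known. It was at 8.21, 7.68, 7.62, 8.86 and 8.18 in FXR BAT and 9.08, 9.19, 8.79, 9.48 and 9.24 in controls, so that FXR BAT 4 overlapped the lowest control (-1.05 ± 0.21, adjusted p = 0.0074, limma). On FXR BAT 3 and 5 it differed by -1.26. Postn thus moved against the other fibroblast products.

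Fibroblast, progenitor and mural cell markers rose in 18 of 20 genes (median 0.56), and 15 rose on FXR BAT 3 and 5 alone. None of the counts of rises in the collagen, proteoglycan, matricellular and fibroblast lists moved by over 1.5 times in any of the 22 other settings. Pdgfra, the receptor that marks adipose progenitors, was at 9.46, 9.40, 9.63, 9.18 and 9.39 in FXR BAT and 7.77, 7.87, 8.08, 8.34 and 8.07 in controls (1.39 ± 0.11, adjusted p = 3.1e-05, limma). Pcolce, which enhances procollagen processing, rose by 1.54 ± 0.11 and Dpt, or dermatopontin, by 1.53 ± 0.15. Acta2, the smooth muscle actin of myofibroblasts and vessel walls, rose by 1.28, and Fn1, or fibronectin, by 1.38. Both were picked with their values known. Within Fn1 the controls spread from 7.82 to 8.70, while the FXR arrays lay between 9.62 and 9.74.

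**Figure D2:**
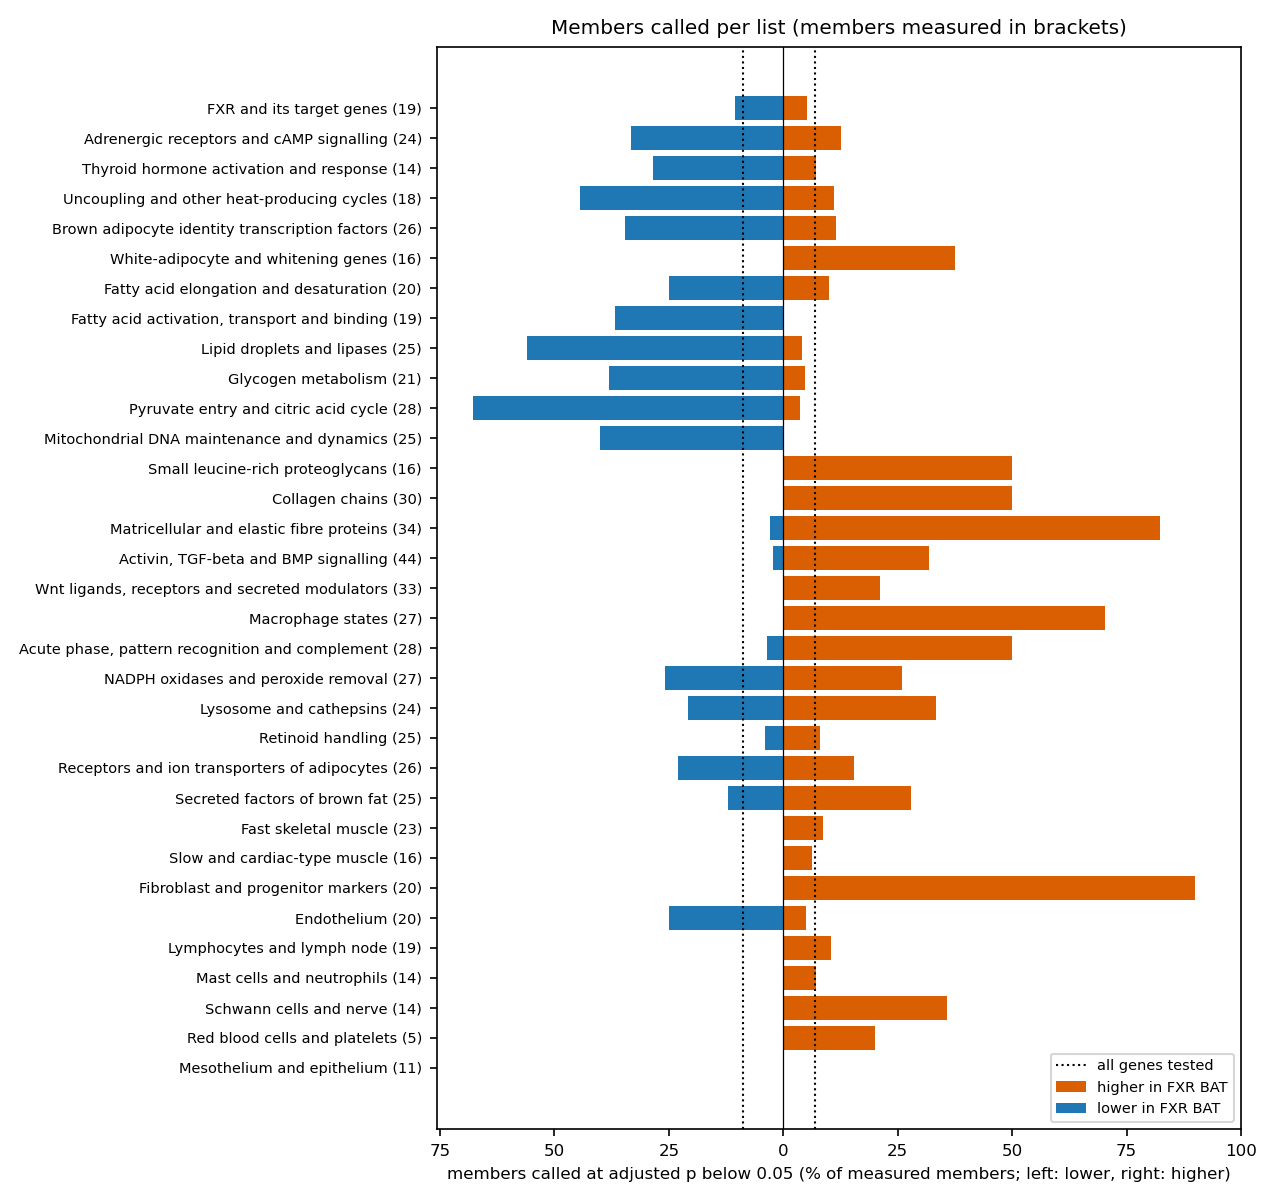
Share of measured members called higher (right) or lower (left) in FXR BAT at an adjusted p below 0.05, as percent of the members measured, which stand in brackets, for the 33 gene lists; dotted lines mark the shares over all genes, 7.01% higher and 8.75% lower. The lists for matrix, fibroblasts and macrophages extend to the right, and those for lipid, citric acid cycle and mitochondrial genes to the left.

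Most macrophage genes rose, and 4 genes known from classical and alternative activation did not pass. Of 27 measured genes, 19 rose and 8 did not pass (median 0.50), and 15 rose on FXR BAT 3 and 5 alone. Csf1r, the receptor for the macrophage growth factor CSF1, was at 8.55, 8.61, 8.47, 8.48 and 8.37 in FXR BAT and 7.33, 7.29, 7.77, 7.62 and 7.54 in controls (0.99 ± 0.09, adjusted p = 6.12e-05, limma). Cd9, a tetraspanin of lipid-associated macrophages and of other cells, rose by 1.14 ± 0.13, and C1qb, a complement subunit made by resident macrophages, by 0.97 ± 0.14. Of genes picked with their values known, Lyve1, a marker of resident perivascular macrophages that lymphatic vessels share, rose by 0.95 and Mrc1, the mannose receptor, by 0.76. The activation genes Nos2, Arg1, Chil3 and Retnla, also picked with values known, differed by -0.00, 0.08, -0.02 and -0.12 and did not pass. Nos2, between 6.55 and 6.73 on the 10 arrays, and Arg1, between 6.16 and 6.42, lay near the dim end. Retnla ranged from 6.93 to 8.61 within FXR BAT, and the groups overlapped.

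The acute phase and complement list had 14 rises, 1 fall and 13 members that did not pass among 28 (median 0.24), and 9 rises on FXR BAT 3 and 5 alone. Lbp, the protein that hands bacterial lipopolysaccharide to its receptor, was at 9.12, 8.80, 9.02, 8.86 and 9.26 in FXR BAT and 6.92, 6.72, 7.34, 7.38 and 7.28 in controls, a 3.69-fold rise (1.89 ± 0.13, adjusted p = 1.58e-05, limma). Its partners in that pathway moved much less: Cd14 rose by 0.24, Tlr4 differed by 0.23 without passing, and Myd88, the adaptor, fell by 0.26. Serping1, the inhibitor of complement C1, rose by 1.60 ± 0.20. C3ar1, the receptor for complement fragment C3a, rose by 0.93 ± 0.05, with 7.75, 7.81, 7.61, 7.84 and 7.71 against 6.75, 6.80, 6.95, 6.83 and 6.76. The acute phase genes Saa1, Saa2 and Orm2 differed by -0.02, 0.10 and -0.00 and did not pass. Cd14, Tlr4, Myd88 and these last 3 genes were picked with their values known.

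Rises were mainly in oxidase subunits and falls in enzymes and thioredoxins that remove oxidants. Of 27 genes, 7 rose, 7 fell and 13 did not pass (median 0.00), and with FXR BAT 3 and 5 alone 3 rose and 6 fell. Without control BAT 1 or control BAT 2, 4 rose, and with quantile normalization 4 fell. Nox4, an NADPH oxidase that releases hydrogen peroxide, was at 7.86, 7.79, 8.01, 7.96 and 8.00 on FXR BAT 1 to 5 and 6.42, 6.40, 6.63, 6.53 and 6.43 on control BAT 1 to 5. The groups were separated by 1.16 log2 units, and the rise of 1.44 ± 0.06 (adjusted p = 3.26e-07, limma) was 1.39 on FXR BAT 1, 2 and 4 and 1.52 on FXR BAT 3 and 5. Control levels of Nox4 lay near the dim end. Cybb, the oxidase subunit of phagocytes, rose by 0.78 ± 0.08. On the removing side, the mitochondrial superoxide dismutase gene Sod2 fell by 0.40, the catalase gene Cat by 0.26 and the mitochondrial thioredoxin gene Txn2 by 0.35; these 3 were picked with their values known. Gpx8, a peroxidase of the endoplasmic reticulum, fell by 0.87 ± 0.23, a call that was lost without control BAT 3 (-0.79, adjusted p = 0.0582, limma) and with FXR BAT 3 and 5 alone (-0.75, adjusted p = 0.144, limma).

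Lysosomal genes split as well: 8 of 24 rose, 5 fell and 11 did not pass (median 0.09), and with FXR BAT 3 and 5 alone 6 rose and 6 fell. The largest rises were in cathepsins known from immune cells, Ctss (1.09 ± 0.12), Ctsh (0.81 ± 0.08) and Ctsc (0.80 ± 0.11). Falls, picked with their values known, were in Ctsz, another cathepsin (-0.68), Lipa, the lysosomal acid lipase (-0.58), and the membrane protein gene Lamp1 (-0.23).

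The second-largest fall in the ranking was in Dio2, the deiodinase that converts thyroxine to the active hormone and that cyclic AMP induces in brown fat. Dio2 was at 7.02, 6.99, 6.76, 7.50 and 6.97 on FXR BAT 1 to 5 and 9.13, 9.22, 9.70, 9.68 and 8.26 on control BAT 1 to 5. All FXR arrays lay below all controls, and the fall was 4.44-fold (-2.15 ± 0.25, adjusted p = 2.41e-04, limma) and 5.04-fold on FXR BAT 3 and 5. Its promoter is printed because it holds the full cAMP response element, and that of Inhba, the largest rise in the ranking, for comparison. Both are RefSeq windows of build GRCm38.p6 from 250 bases before to 50 bases after the gene's start, chr12:90738989-90739288 on the minus strand for Dio2 and chr13:16011601-16011900 on the plus strand for Inhba, written 5′ to 3′ with motif letters in capitals.
Dio2: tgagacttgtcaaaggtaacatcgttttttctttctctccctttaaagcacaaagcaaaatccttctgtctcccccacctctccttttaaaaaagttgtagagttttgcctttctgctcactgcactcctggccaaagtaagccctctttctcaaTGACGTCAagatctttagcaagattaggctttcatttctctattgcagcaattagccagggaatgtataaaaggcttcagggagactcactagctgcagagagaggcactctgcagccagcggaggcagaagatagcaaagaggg
Inhba: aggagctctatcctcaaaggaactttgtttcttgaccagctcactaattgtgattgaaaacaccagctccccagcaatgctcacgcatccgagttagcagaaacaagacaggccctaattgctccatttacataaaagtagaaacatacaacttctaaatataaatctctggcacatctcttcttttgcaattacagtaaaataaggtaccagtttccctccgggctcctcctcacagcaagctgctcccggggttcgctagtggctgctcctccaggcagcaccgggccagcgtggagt
The element, TGACGTCA, which reads the same on both strands, begins at position -95 of the Dio2 window and is absent from that of Inhba. It was found in 588 of 32851 promoter windows, or 1.79%. Of the 100 genes named by rule, 79 had a window in the table, and Dio2 was the only one of these with the element. Neither the inverted repeat AGGTCANTGACCT, a spacing that FXR binds, nor the direct repeat AGGTCANAGGTCA was found on either strand in any of the 79, against 3 windows (0.00913%) and 13 windows (0.0396%) of all. Both repeats are so rare that a match among 79 genes was unlikely, so their absence does not speak to FXR binding. Of the 424 tested genes whose windows hold the cAMP response element, 58 were lower (13.7%) and 22 higher (5.19%). Among the 15613 tested genes with any window, 9.33% were lower and 6.89% higher. The median difference was -0.01 for the 424 and 0.01 for the 15613, and other scalings were not tested for these shares.

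Of 14 thyroid hormone genes, Dio2 included, 4 fell, where 8.75% of all genes fell, 1 rose and 9 did not pass (median -0.06), and 3 fell on FXR BAT 3 and 5 alone. Without control BAT 2, control BAT 4 or FXR BAT 5, 2 fell. Slc16a10, a thyroid hormone and aromatic amino acid transporter, fell by 0.32 ± 0.05. Hr, or hairless, a corepressor of the hormone's receptor, rose by 0.32 ± 0.07, and its call was lost on FXR BAT 3 and 5 alone (0.29, adjusted p = 0.135, limma). The receptor genes Thra and Thrb, picked with their values known, differed by -0.06 and 0.05 and did not pass.

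In cAMP signalling the largest fall was in a cyclase. Of 24 measured genes, 8 fell, 3 rose and 13 did not pass (median -0.16), with 5 falling and 1 rising on FXR BAT 3 and 5 alone. With quantile normalization 4 fell and 1 rose, and without control BAT 2 and 4 2 fell. The rises also dropped to 1 without control BAT 3, control BAT 4, FXR BAT 1 or FXR BAT 4. Adcy3, an adenylyl cyclase that makes cyclic AMP, was at 8.57, 8.73, 9.00, 8.64 and 8.91 in FXR BAT and 9.66, 10.52, 9.88, 9.84 and 9.51 in controls (-1.11 ± 0.16, adjusted p = 0.00122, limma), with -1.23 on FXR BAT 1, 2 and 4 and -0.93 on FXR BAT 3 and 5. The cyclase gene Adcy6 fell by 0.45 ± 0.09, and on FXR BAT 3 and 5 alone it differed by -0.28 (adjusted p = 0.0781, limma). The cyclases that rose, Adcy7, Adcy2 and Adcy5, by 0.35, 0.31 and 0.23, were picked with their values known, as were the phosphodiesterase gene Pde4d (-0.33) and the kinase subunit gene Prkar2b (-0.36), which fell. Atf2, a transcription factor that binds cAMP response elements, fell by 0.39 ± 0.10. That call was lost in 5 of the 10 fits without 1 array (without control BAT 2, 3 or 4 and FXR BAT 1 or 2; differences over all 10 fits -0.48 to -0.33, highest adjusted p = 0.0669, limma) and on FXR BAT 3 and 5 alone. Sik1, a kinase that cyclic AMP induces, fell by 0.96 ± 0.19, with 7.96, 8.42, 8.10, 8.41 and 8.08 against 8.61, 9.54, 9.37, 9.53 and 8.71, and its call was lost without control BAT 2 and 4 (-0.70, adjusted p = 0.0507, limma).

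Falls outnumbered rises in the heat-production list, which also holds Acot11, a gene that acts as a restraint. Of 18 genes for uncoupling and other heat-producing cycles, 8 fell, 2 rose and 8 did not pass (median -0.21), and on FXR BAT 3 and 5 alone 9 fell and 1 rose. Otop1, a proton channel selective for brown over white fat, was at 9.85, 9.85, 9.61, 9.96 and 10.02 in FXR BAT and 10.64, 10.75, 10.65, 10.61 and 10.47 in controls (-0.77 ± 0.08, adjusted p = 1.06e-04, limma). Acot11, a thioesterase that restrains fatty acid use in brown fat, was at 10.32, 10.07, 9.17, 9.98 and 9.68 against 10.91, 10.43, 10.94, 10.67 and 10.94, with -0.65 on FXR BAT 1, 2 and 4 and -1.35 on FXR BAT 3 and 5. Ucp1 itself, picked with its values known, was at 12.83, 13.00, 12.61, 12.79 and 12.62 against 13.09, 13.42, 13.30, 13.24 and 13.20 (-0.48 ± 0.08, adjusted p = 0.00247, limma). The groups did not overlap, and the lowest values were on FXR BAT 3 and 5. This count of falls stayed between 7 and 8 in the 10 fits without 1 array. Gatm, the first enzyme of creatine synthesis, rose by 0.87 ± 0.15, with 1.01 on FXR BAT 1, 2 and 4 and 0.66 on FXR BAT 3 and 5. Alpl, a phosphatase of the creatine cycle picked with its values known, fell by 0.76.

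Calls among transcription factors of brown adipocyte identity differed with the FXR arrays kept. Over all arrays 9 of 26 fell, 3 rose and 14 did not pass (median -0.03), where 8.75% of all genes fell and 7.01% rose. On FXR BAT 3 and 5 alone 2 fell and 1 rose, where 4.98% of all genes fell and 4.61% rose. The rises also dropped to 1 without control BAT 3, control BAT 4 or FXR BAT 1. Ppargc1a, the coactivator of mitochondrial genes that cold induces, was at 8.09, 8.30, 8.34, 8.37 and 8.29 in FXR BAT and 9.03, 9.21, 9.26, 9.23 and 8.54 in controls (-0.78 ± 0.12, adjusted p = 0.00195, limma), and Cebpb, an early adipogenic factor, fell by 0.65 ± 0.10. Both remained called on FXR BAT 3 and 5. Pparg, the main adipogenic receptor, and Prdm16, which specifies the brown lineage, fell by 0.37 and 0.40 over all arrays. On FXR BAT 3 and 5 they differed by -0.22 (adjusted p = 0.0936, limma) and -0.27 (adjusted p = 0.137, limma). Ebf2, a selector of the brown lineage, was at 9.45 on FXR BAT 3 and between 8.58 and 8.99 on the other 4 FXR arrays, against 8.61 to 8.88 in controls, and did not pass. Pparg, Prdm16 and Ebf2 were picked with their values known. Tbx15, a T-box factor of fat and muscle, rose by 0.58 ± 0.18, with 0.87 on FXR BAT 1, 2 and 4. On FXR BAT 3 and 5 alone it differed by 0.15 and lost its call (adjusted p = 0.306, limma). The call was also lost in 8 of the 10 fits without 1 array, all but those without FXR BAT 3 or 5 (0.46 to 0.70 over all 10 fits, highest adjusted p = 0.0947, limma).

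Fatty acid elongation held the largest fall in the ranking of genes whose groups did not overlap. Elovl3, an elongase that cold induces in brown fat, was at 7.85, 8.47, 6.44, 7.79 and 7.31 on FXR BAT 1 to 5 and 10.05, 10.78, 10.33, 9.92 and 9.56 on control BAT 1 to 5. It fell 5.88-fold over all arrays (-2.56 ± 0.34, adjusted p = 5.98e-04, limma) and 9.56-fold on FXR BAT 3 and 5. The next steps of the same cycle fell too, the dehydratase gene Hacd2 by 0.82 ± 0.07 and the ketoacyl-CoA reductase gene Hsd17b12 by 0.51, as did the elongase gene Elovl6 by 0.52. In all, 5 of 20 elongation and desaturation genes fell, 2 rose and 13 did not pass (median -0.01), with 5 falling and 1 rising on FXR BAT 3 and 5 alone. The desaturase genes Scd1, Scd2, Fads1 and Fads2 differed by -0.02, 0.11, 0.14 and -0.01 and did not pass. Hsd17b12, Elovl6 and these 4 were picked with their values known. Fads3, a member of the desaturase family, rose by 0.81 ± 0.19, but on FXR BAT 3 and 5 alone it differed by 0.49 (adjusted p = 0.219, limma).

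Genes that activate, transport and bind fatty acids fell in 7 of 19 cases and rose in 0, where 7.01% of all genes rose, and 12 did not pass (median -0.23). On FXR BAT 3 and 5 alone 7 fell as well, while 3 fell with quantile normalization, 4 without control BAT 2 or control BAT 4, and 2 without both. Acsl5, which couples long-chain fatty acids to coenzyme A, was at 10.83, 10.91, 10.02, 10.58 and 9.91 in FXR BAT and 11.81, 11.65, 11.89, 11.65 and 11.85 in controls. It fell by 1.32 ± 0.18 (adjusted p = 7.73e-04, limma), and by more on FXR BAT 3 and 5, where the difference was -1.81. Acss1, the mitochondrial acetyl-CoA synthetase, showed the reverse order, with -0.74 on FXR BAT 1, 2 and 4 and -0.29 on FXR BAT 3 and 5, and it lost its call without control BAT 2 and 4 (-0.56, adjusted p = 0.0601, limma). Acss3 fell by 0.48 ± 0.11, with calls lost under quantile normalization (-0.33, adjusted p = 0.0628, limma), without control BAT 2 and 4 (-0.44, adjusted p = 0.0896, limma) and with the fast-muscle covariate (-0.48, adjusted p = 0.0516, limma). Of 25 lipid droplet and lipase genes, 14 fell, 1 rose and 10 did not pass (median -0.33), and 8 fell and 1 rose on FXR BAT 3 and 5 alone. With quantile normalization 5 fell, and without control BAT 2 and 4 8 fell. Abhd6, a monoacylglycerol lipase, fell by 0.77 ± 0.09, and Plin5, which tethers droplets to mitochondria, by 0.51 ± 0.08. Angptl8, a feeding-induced regulator of lipoprotein lipase, fell by 0.45 ± 0.10. Apoc1, a lipoprotein component, was at 9.19, 9.20, 9.25, 9.32 and 9.13 against 10.42, 10.50, 10.17, 10.19 and 9.87, a 2.02-fold fall.

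Glycogen genes fell at several steps. Gys2, a glycogen synthase best known from liver, was at 8.94, 9.09, 7.76, 9.26 and 8.63 in FXR BAT and 10.06, 10.35, 11.00, 10.33 and 10.27 in controls (-1.67 ± 0.26, adjusted p = 0.00179, limma), a 3.18-fold fall that was 4.63-fold on FXR BAT 3 and 5. The targeting subunits that bring phosphatase to glycogen, Ppp1r3c and Ppp1r3b, fell by 0.70 ± 0.17 and 0.69 ± 0.07. Ppp1r3c differed by -0.91 on FXR BAT 3 and 5, and its call was lost on FXR BAT 1, 2 and 4 alone (-0.56, adjusted p = 0.0537, limma) and without control BAT 2 and 4 (-0.57, adjusted p = 0.142, limma). Of 21 glycogen genes, 8 fell, 1 rose and 12 did not pass (median -0.13), and on FXR BAT 3 and 5 alone 9 fell, while 5 fell with quantile normalization. The muscle subunit gene Ppp1r3a, picked with its values known, had a positive difference of 1.03, did not pass, and differed by 1.68 on FXR BAT 1, 2 and 4 and 0.05 on FXR BAT 3 and 5.

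Of 28 genes for pyruvate entry and the citric acid cycle, 19 fell, 1 rose and 8 did not pass (median -0.29), and 17 fell on FXR BAT 3 and 5 alone. The count depended on scaling and on control arrays, with 7 falls under quantile normalization, 12 without control BAT 2 and 6 without control BAT 2 and 4. Dlat, the acetyl-transferring core of pyruvate dehydrogenase, was at 11.38, 11.37, 11.15, 11.40 and 11.02 in FXR BAT and 11.65, 11.59, 11.82, 11.69 and 11.63 in controls (-0.41 ± 0.08, adjusted p = 0.00452, limma). Dlst, the equivalent core of the oxoglutarate dehydrogenase, fell by 0.39 ± 0.06. Pdp2, a phosphatase that switches pyruvate dehydrogenase on, fell by 0.67 ± 0.11, while its relative Pdp1, picked with its values known, rose by 0.32.

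Among mitochondrial maintenance genes, 10 of 25 fell, 0 rose, where 7.01% of all genes rose, and 15 did not pass (median -0.22), and 8 fell on FXR BAT 3 and 5 alone. With quantile normalization 6 fell, as without control BAT 2 and 4. Letm1, a cation exchanger of the inner membrane, was at 8.94, 9.12, 8.88, 9.11 and 8.91 against 9.62, 9.72, 9.68, 9.67 and 9.55 (-0.66 ± 0.06, adjusted p = 5.37e-05, limma). The protease genes Clpp and Lonp1, which clear damaged matrix proteins, fell by 0.42 ± 0.04 and 0.40 ± 0.08, and the call of Lonp1 was lost on FXR BAT 3 and 5 alone (-0.31, adjusted p = 0.0585, limma). Tfam, which packages mitochondrial DNA, and the fusion gene Mfn2, both picked with their values known, fell by 0.23 and 0.26.

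**Figure D3:**
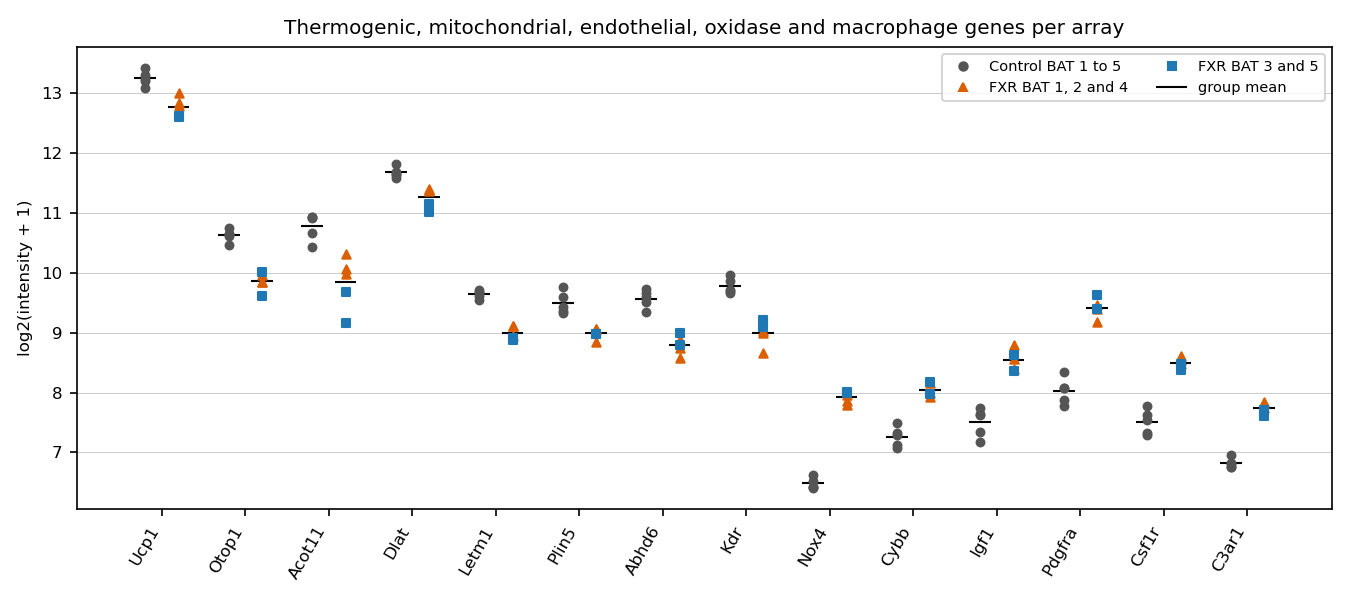
Levels per array, log2(intensity + 1), of 14 genes. They are thermogenic (Ucp1, Otop1), thioesterase (Acot11), mitochondrial (Dlat, Letm1), lipid (Plin5, Abhd6), endothelial (Kdr), oxidase (Nox4, Cybb), growth factor (Igf1), progenitor (Pdgfra) and macrophage (Csf1r, C3ar1) genes. Circles are control BAT, triangles FXR BAT 1, 2 and 4, squares FXR BAT 3 and 5, and lines group means. The groups do not overlap for any of the 14 genes, with Nox4 between 6.40 and 6.63 in controls and between 7.79 and 8.01 in FXR BAT. The 14 genes were chosen with their values known, and over all genes tested the groups did not overlap for 12.2%.

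Receptors and ion transporters of adipocytes fell in 6 of 26 cases, rose in 4 and did not pass in 16 (median 0.01), where 8.75% of all genes fell and 7.01% rose. On FXR BAT 3 and 5 alone 3 fell and 3 rose, where 4.98% of all genes fell and 4.61% rose. The rises numbered 1 without control BAT 2 or control BAT 3 and 2 without control BAT 4 or FXR BAT 2, 4 or 5. Ffar4, a receptor for long-chain fatty acids, was at 7.21, 7.53, 7.26, 6.98 and 7.11 in FXR BAT and 8.14, 9.75, 9.12, 8.75 and 7.82 in controls. The FXR arrays were close together while the controls spread over 1.93 log2 units (-1.49 ± 0.30, adjusted p = 0.00711, limma), and on FXR BAT 3 and 5 alone the call was lost at nearly the same difference (-1.53, adjusted p = 0.0589, limma). Slc4a4, a sodium bicarbonate cotransporter, fell by 1.39 ± 0.25, with 8.39, 9.69, 9.47, 9.55 and 9.41 against 10.45, 11.25, 10.68, 10.85 and 10.23, lowest on FXR BAT 1. Slc12a2, the sodium potassium chloride cotransporter, fell by 0.95 ± 0.16. In the retinoid list 1 of 25 genes fell, 2 rose and 22 did not pass (median 0.03), where 8.75% of all genes fell and 7.01% rose, and on FXR BAT 3 and 5 alone 1 fell and 1 rose. Dhrs9, a dehydrogenase that acts on retinol, was at 7.37, 7.46, 7.26, 7.48 and 7.52 against 8.35, 9.10, 8.93, 8.58 and 7.89 (-1.15 ± 0.19, adjusted p = 0.00211, limma). Rarres2, which encodes the adipokine chemerin, rose by 0.93 ± 0.12. Cyp26b1, which degrades retinoic acid, rose by 0.25 ± 0.07, with 0.32 on FXR BAT 1, 2 and 4. On FXR BAT 3 and 5 alone it differed by 0.15 and lost its call (adjusted p = 0.0944, limma). The call was also lost with the fast-muscle mean as a covariate (0.16, adjusted p = 0.239, limma) and in 6 of the 10 fits without 1 array (without control BAT 1, 2, 3 or 4 and FXR BAT 2 or 4; 0.18 to 0.28 over all 10 fits, highest adjusted p = 0.0809, limma).

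Secreted factors rose in 7 of 25 cases, fell in 3 and did not pass in 15 (median 0.12), with 4 rises and 1 fall on FXR BAT 3 and 5 alone. The falls dropped to 1 in 7 of the 10 fits without 1 array, all but those without control BAT 5 and FXR BAT 2 or 3. Igf1, the insulin-like growth factor, was at 8.40, 8.56, 8.36, 8.79 and 8.63 in FXR BAT and 7.74, 7.63, 7.35, 7.65 and 7.18 in controls (1.04 ± 0.11, adjusted p = 2.01e-04, limma). The binding protein genes Igfbp6 and Igfbp4 rose by 1.00 ± 0.23 and 0.77 ± 0.11, and Igfbp6 lost its call on FXR BAT 3 and 5 alone (0.71, adjusted p = 0.212, limma). Of genes linked to white rather than brown fat, 6 of 16 rose, 10 did not pass and 0 fell, where 8.75% of all genes fell (median 0.12), and 3 rose on FXR BAT 3 and 5 alone, as without control BAT 1 or FXR BAT 5. Ccdc80, a matrix protein needed for adipocyte differentiation, rose by 1.15 ± 0.12. Lep, or leptin, was at 8.52, 7.07, 7.34, 7.18 and 7.77 in FXR BAT and 6.65, 6.37, 6.65, 6.65 and 6.63 in controls (0.99 ± 0.23, adjusted p = 0.0143, limma). Control arrays of Lep lay near the dim end, and FXR BAT 1 was the highest array. The call was lost without control BAT 2 and 4 (0.94, adjusted p = 0.0992, limma) and with the fast-muscle covariate (0.89, adjusted p = 0.071, limma). The white-fat position genes Hoxc8, Hoxc9 and Hoxc10, picked with their values known, differed by -0.25, -0.03 and -0.03 and did not pass. Sncg, or gamma-synuclein, rose by 1.02 ± 0.28, with 8.69 on FXR BAT 3, 10.27 on FXR BAT 1 and overlapping groups. Its call was lost in 5 of the 10 fits without 1 array (without control BAT 1, 3 or 5 and FXR BAT 2 or 5; 0.80 to 1.20 over all 10 fits, highest adjusted p = 0.0734, limma) and on FXR BAT 3 and 5 alone.

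At the adjusted threshold, the share of FXR and its known targets that passed did not stand out from that of all genes. Mouse Nr1h4, the gene of FXR, was at 6.31, 6.21, 6.21, 6.26 and 6.29 in FXR BAT and 6.28, 6.20, 6.22, 6.15 and 6.20 in controls, and its overlapping groups differed by 0.05 ± 0.03 (adjusted p = 0.408, limma). The mouse probe set is no direct check of the transgene, which is human. Nr0b2, a repressor that FXR induces in liver, differed by 0.07 ± 0.04 (adjusted p = 0.299, limma), and both genes lay near the dim end. Of 19 genes, 1 rose, 2 fell and 16 did not pass (median 0.07, against 0.01 for all genes), where 15.8% of all genes passed in either direction. With FXR BAT 3 and 5 alone 1 rose. An unadjusted p below 0.05 (limma) was seen for 10 of the 19, a larger share than the 5622 of 19937 over all genes. Slc51b, a subunit of the bile acid exporter OSTalpha-OSTbeta and a direct FXR target in intestine, was at 6.73, 7.19, 6.70, 7.87 and 6.90 against 6.45, 6.42, 6.48, 6.24 and 6.46. These control levels lay near the dim end. All FXR arrays lay above all controls (0.67 ± 0.19, adjusted p = 0.0339, limma), and on FXR BAT 3 and 5 alone the difference was 0.39 (adjusted p = 0.0147, limma). With the fast-muscle mean as a covariate it was 0.43 and the call was lost (adjusted p = 0.231, limma), as it was with quantile normalization (0.63, adjusted p = 0.0583, limma), without control BAT 2 and 4 (0.62, adjusted p = 0.185, limma) and with the trend and robust options of eBayes (0.67, adjusted p = 0.0764, limma). The call was also lost in 6 of the 10 fits without 1 array, those without a control array and without FXR BAT 2 (0.47 to 0.76 over all 10 fits, highest adjusted p = 0.083, limma). Its partner Slc51a, picked with its values known, differed by 0.08 and did not pass. Vldlr, a lipoprotein receptor, and Insig2, a brake on sterol synthesis, fell by 0.25 and 0.19. On FXR BAT 1, 2 and 4 Vldlr differed by -0.36, but on FXR BAT 3 and 5 alone by -0.09 with its call lost (adjusted p = 0.581, limma), and with quantile normalization by -0.11. Insig2 lost its call on FXR BAT 3 and 5 alone (-0.19, adjusted p = 0.118, limma) and with quantile normalization, where it differed by -0.09. Vldlr lost its call in 9 of the 10 fits without 1 array, all but that without FXR BAT 3 (-0.32 to -0.21, highest adjusted p = 0.113, limma), and Insig2 in 3, without control BAT 4 and FXR BAT 2 or 5 (-0.21 to -0.15, highest adjusted p = 0.0614, limma).

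**Figure D4:**
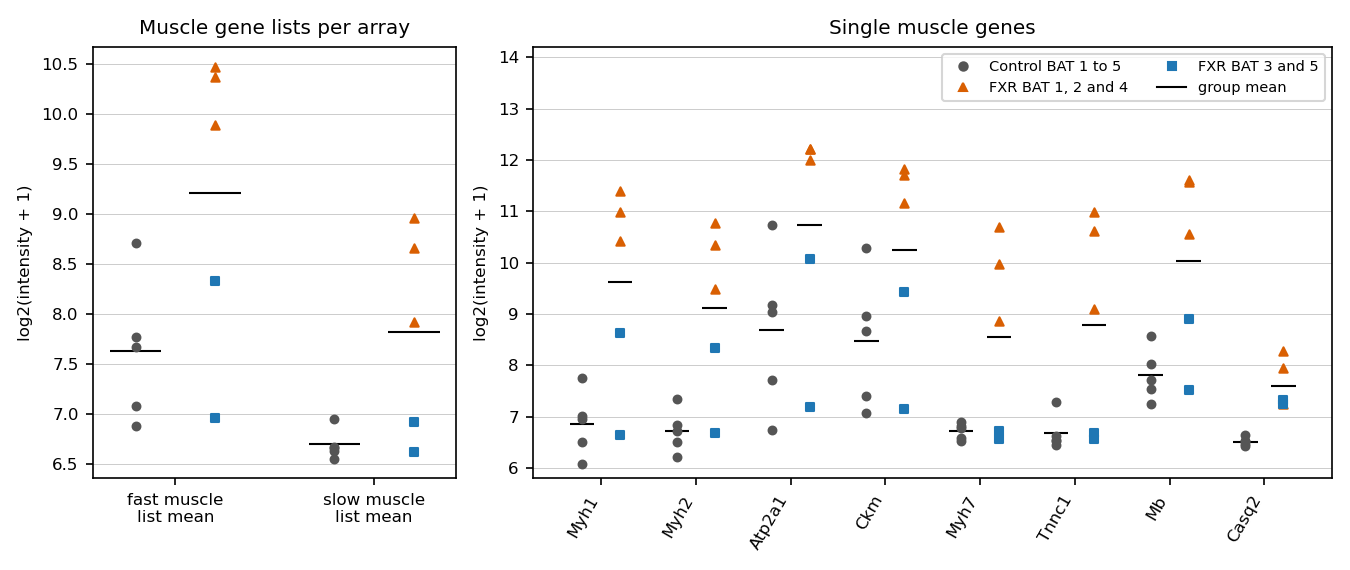
Muscle signal per array, log2(intensity + 1): means of the fast-muscle and slow-muscle gene lists (left) and single muscle genes (right); circles are control BAT, triangles FXR BAT 1, 2 and 4, squares FXR BAT 3 and 5, and lines group means. Triangles lie at 9.89 to 10.47 for the fast-muscle mean, above the highest control array at 8.71, and the squares lie within the control range.

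Muscle genes separated the FXR arrays from each other more than from the controls. Over all arrays 2 of 23 fast-muscle genes rose, with a median difference of 1.67. On FXR BAT 1, 2 and 4 alone all 23 rose with a median of 2.86, and on FXR BAT 3 and 5 alone 0 were called at a median of -0.03. The sets were defined by this muscle signal, so their muscle gene counts follow from that choice and are no separate result. Myh1, a fast myosin, was at 10.99, 10.42, 6.65, 11.40 and 8.63 in FXR BAT and 6.95, 7.02, 7.76, 6.50 and 6.08 in controls. Its difference of 2.76 ± 0.79 (adjusted p = 0.0359, limma) and that of Myh2 (2.41 ± 0.65, adjusted p = 0.0285, limma) lost their calls in 7 of the 10 fits without 1 array. These were the fits without control BAT 1, 2, 4 or 5 and without FXR BAT 1, 2 or 4, with 2.31 to 3.50 for Myh1 and 1.99 to 3.01 for Myh2 over all 10 fits (highest adjusted p = 0.0821 and 0.0661, limma). Slow-muscle genes that defined the same gap were Tnnc1, at 6.57 on FXR BAT 3 and 10.98 on FXR BAT 4, Myh7, at 6.56 and 10.69, and Mb, or myoglobin, at 7.51 and 11.61. Casq2, a calcium store protein of heart and slow muscle, was the exception. It was at 7.94, 7.25, 7.32, 8.27 and 7.25 in FXR BAT and 6.46, 6.64, 6.42, 6.53 and 6.52 in controls, above all controls also on FXR BAT 3 and 5 (0.77, adjusted p = 3.04e-04, limma). Control levels of Casq2 lay near the dim end. Of the 16 slow and cardiac-type genes it was the only one to rise, also with FXR BAT 3 and 5 alone, and 13 rose with FXR BAT 1, 2 and 4 alone.

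The 4 genes called in opposite directions by the 2 sets of FXR arrays were Tmem182, Srl, Slc25a4 and Vdac1, picked with their values known. Srl, or sarcalumenin, a calcium-binding protein of muscle, differed by 0.75 on FXR BAT 1, 2 and 4 and by -0.68 on FXR BAT 3 and 5. Tmem182, a membrane protein gene, differed by 1.12 and -0.64. Slc25a4, the heart and muscle ADP/ATP carrier, differed by 0.31 and -0.25, and Vdac1, the outer membrane pore, by 0.21 and -0.24. In the fit of all 10 arrays their differences were 0.18, 0.42, 0.09 and 0.03, and none passed.

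**Figure D5:**
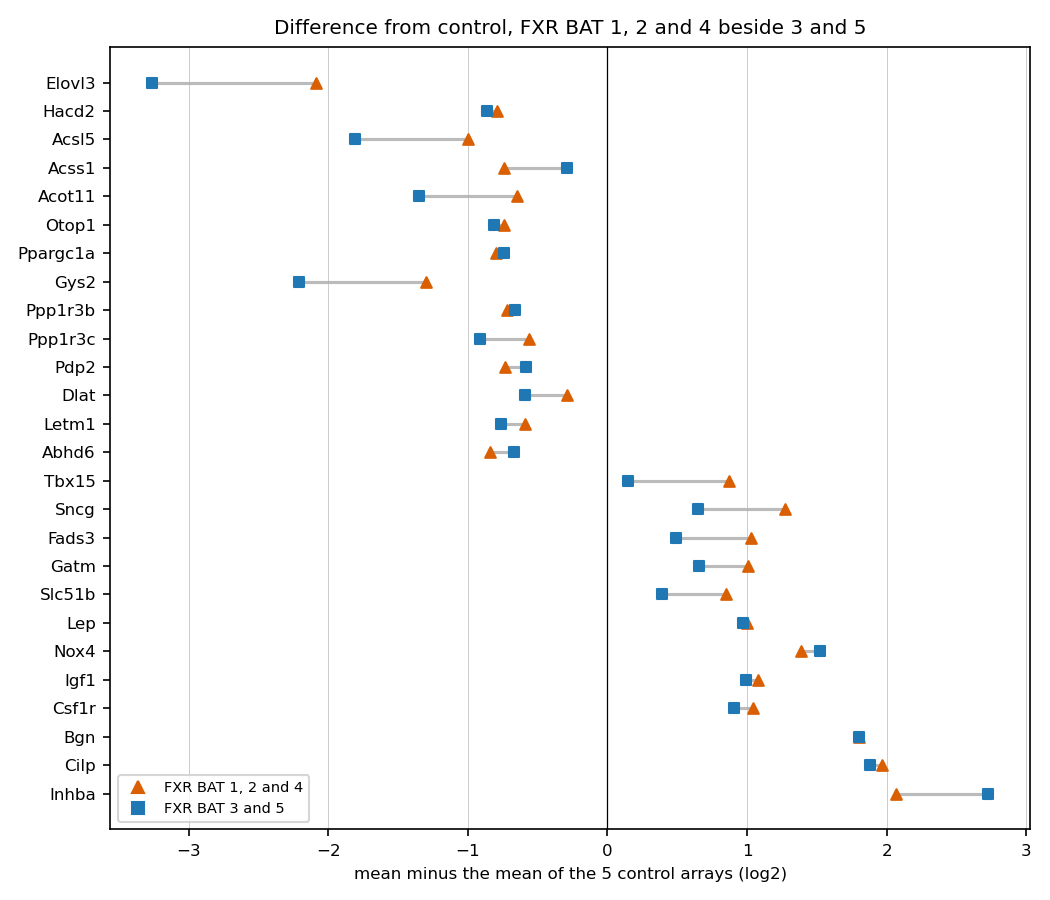
Differences of named genes from the mean of the 5 control arrays, in log2 units, for the mean of FXR BAT 1, 2 and 4 (triangles) and of FXR BAT 3 and 5 (squares); grey lines join both values of a gene. Bgn, Lep, Otop1 and Ppargc1a differ little between the sets, Elovl3, Acsl5, Acot11 and Gys2 lie lower on FXR BAT 3 and 5, and Tbx15 lies higher on FXR BAT 1, 2 and 4.

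Among markers of other cell types, endothelial genes fell in 5 of 20 cases, rose in 1 and did not pass in 14 (median -0.08), where 8.75% of all genes fell and 7.01% rose. On FXR BAT 3 and 5 alone 2 fell, where 4.98% of all genes fell. On FXR BAT 1, 2 and 4 alone 8 fell, where 8.8% of all genes fell. Kdr, the VEGF receptor of vessels, was at 9.00, 8.66, 9.21, 9.03 and 9.09 in FXR BAT and 9.72, 9.96, 9.69, 9.66 and 9.87 in controls (-0.78 ± 0.10, adjusted p = 3.33e-04, limma). Eng fell by 0.50 ± 0.08 and Egfl7, a matrix protein of vessels, by 0.41 ± 0.08, and Egfl7 lost its call on FXR BAT 3 and 5 alone (-0.20, adjusted p = 0.0597, limma). Pecam1, an endothelial adhesion protein picked with its values known, differed by 0.01 and did not pass. Vegfa, the ligand of Kdr, named likewise, fell by 0.49, with -0.65 on FXR BAT 1, 2 and 4 and -0.25 on FXR BAT 3 and 5. Schwann cell and nerve genes rose in 5 of 14 cases (median 0.09), with 0 rising on FXR BAT 3 and 5 alone, where 4.61% of all genes rose, and 1 with quantile normalization. Without control BAT 1, control BAT 2 or FXR BAT 4, 2 rose, and without control BAT 4, FXR BAT 1 or FXR BAT 5, 3 rose. Pmp22, a myelin protein that fibroblasts share, rose by 0.67 ± 0.17, and its call was lost without control BAT 1 (0.63, adjusted p = 0.0506, limma) and on FXR BAT 3 and 5 alone (0.48, adjusted p = 0.166, limma). The myelin genes Cnp (0.39 ± 0.11) and Mal (0.30 ± 0.08) lost their calls in 5 of the 10 fits without 1 array (Cnp: control BAT 1, 2 or 5 and FXR BAT 4 or 5; highest adjusted p = 0.0719, limma) and in 6 (Mal: control BAT 1, 2 or 4 and FXR BAT 1, 4 or 5; highest adjusted p = 0.0645, limma). The differences ranged over all 10 fits from 0.30 to 0.46 for Cnp and from 0.26 to 0.35 for Mal. List means of nerve genes were 7.00 to 7.27 in FXR BAT and 6.89 to 7.00 in controls.

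Lymphocyte genes rose in 2 of 19 cases, where 7.01% of all genes rose, Cd37 (0.26 ± 0.06) and Il7r (0.20 ± 0.05), and in 0 on FXR BAT 3 and 5 alone, and their list means were 6.32 to 6.41 in FXR BAT and 6.28 to 6.37 in controls. Of 14 mast cell and neutrophil genes, 1 rose, a share near that of all genes. It was S100a8 (0.13 ± 0.04), with a call lost on FXR BAT 3 and 5 alone (0.13, adjusted p = 0.171, limma) and in 3 of the 10 fits without 1 array (without control BAT 3 or 4 and FXR BAT 1; 0.12 to 0.15 over all 10 fits, highest adjusted p = 0.0617, limma). Of 5 measured red cell and platelet genes, Pf4, a chemokine of platelets that macrophages also make, rose by 0.59 ± 0.08, and it rose on FXR BAT 3 and 5 alone. No mesothelial or epithelial gene of 11 passed with limma, 0 had an unadjusted p below 0.05, and the largest differences were 0.08 for Epcam and -0.06 for Lrrn4. What part the muscle, nerve and immune cell signals have in the changes of other genes was not tested.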

How the data were processed

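Total RNA of BAT was labelled with biotin, per the labels from 500 ng, and hybridised to 1 Affymetrix mouse gene array per sample. The deposited value table gives 1 intensity per probe set and array on a linear scale; the authors' background correction and normalization are not given in the sources used here. Of 34760 probe sets, 21640 had 1 symbol in the platform annotation, and the brightest per gene over all 18 arrays was kept (19937 genes, 954 with several probe sets). log2(intensity + 1) was tested, FXR against control over 10 BAT arrays with no covariate and no filter, using limma 3.58.1 under R 4.3.3 (lmFit, then eBayes), and checked on simulated arrays; the number of arrays limits the precision. Summaries used Python 3.11.15.

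The comparison, the 33 gene lists and the alternatives were chosen with earlier results of these data known. Genes named by rule were Nr1h4, Nr0b2, the 10 largest rises and falls among called genes whose groups did not overlap, up to 3 called members per list with the largest differences (2 as values where none was called), and 3 members per muscle list with the largest gap between the sets of FXR arrays. Predicted genes, Gm and Rik names, olfactory and vomeronasal receptors, small RNAs, and immunoglobulin and T cell receptor segments were left out of the ranking of largest rises and falls. Besides leave-one-out fits, alternatives changed the scaling, pseudocount, dim filter, probe set rule, samples, replicate block, eBayes options and a muscle covariate; the fit without FXR BAT 3 and 5 was chosen after seeing the data. Promoter windows came from RefSeq. Only array titles shared numbers; same-numbered arrays did not deviate together in all pairs.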

Additional observations from a re-analysis of the deposited data

Results flagged for a closer look

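In 14 of 200 groups (100 named genes, control and FXR BAT), 1 array of a group lay far from the other 4, by Dixon's criterion for 5 samples. Chance alone gives about 1 in 20 groups, or 10 of the 200.

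FXR BAT 1 was the distant array in 7 cases. It was lowest for Slc4a4 (8.39, others 9.41 to 9.69), Ppargc1a (8.09, others 8.29 to 8.37), Pdp2 (7.64, others 7.97 to 8.06), Lonp1 (9.05, others 9.36 to 9.43), Gpx8 (8.85, others 9.49 to 9.67) and Lrrn4 (6.42, others 6.69 to 6.76). It was highest for Cyp26b1 (7.31, others 6.89 to 6.97). FXR BAT 5 was lowest for the Wnt inhibitor gene Sfrp2 (8.35, others 8.91 to 8.96).

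Among control arrays, control BAT 4 was lowest for Slc51b (6.24, others 6.42 to 6.48) and highest for Col3a1 (10.04, others 9.30 to 9.38). Control BAT 2 was highest for Cebpb (9.82, others 9.24 to 9.38) and lowest for Lep (6.37, others 6.63 to 6.65). Control BAT 3, which had the highest fast-muscle mean of the controls at 8.71, was highest for Fads3 (8.14, others 7.55 to 7.68) and for the muscle gene Tnnc1 (7.28, others 6.44 to 6.63).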

How the results depend on the processing

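Of the 91 named genes that passed, 62 kept their call in all 22 other settings, 14 lost it in at least 1 fit without 1 array, and none changed sign in any setting. Genes higher in FXR BAT numbered 886 with each array centred on its median (26.1% of calls higher, against 44.5%, with 2511 lower), 920 without FXR BAT 1, 2 and 4, and 704 without control BAT 2 and 4. With quantile normalization, 11 of the 91 lost their call, with centring 3, without FXR BAT 1, 2 and 4 23, and without control BAT 2 and 4 25. Lower genes numbered 993 and 712 in the last 2 fits. Leaving out 1 array gave 976 to 1623 higher and 1222 to 2062 lower genes. With the fast-muscle mean as a covariate 1256 were higher and 1195 lower, of which 872 and 1026 were also called without it. With the replicate block 1141 were higher and 1600 lower. Same-numbered arrays correlated between -0.493 and 0.276 in their deviations from the group means, which cannot show whether the numbers pair the arrays. The cause of these shifts was not tested. Low signal limits dim genes, whose differences are compressed: 15134 of 19937 genes lay above 1.5 times the 1% quantile on at least 5 arrays.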

Other observations

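Further large rises were seen mainly on the arrays with muscle signal. Of the 17 genes that rose at least 2-fold over all arrays but were not called with FXR BAT 3 and 5 alone, most are known from striated muscle, such as Myom2 (2.11 on FXR BAT 1, 2 and 4, 0.31 on FXR BAT 3 and 5), Flnc (1.60 and 0.27), Ankrd23 (2.08 and 0.38), Cryab (1.85 and 0.46) and Fhl1 (1.87 and 0.37). Others differed about as much in both sets. Timp2, an inhibitor of matrix metalloproteases, differed by 1.09 and 0.86 (adjusted p = 0.0549 with FXR BAT 3 and 5 alone, limma), and F13a1, a transglutaminase subunit made by macrophages, by 1.25 and 0.98 (adjusted p = 0.0561, limma). These genes were picked after their values were seen.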
